A study of Rattus norvegicus with 15 samples.

Results

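Flutamide at 100 µM was compared with flutamide at 10 µM in primary rat hepatocytes. Hepatocytes freshly isolated from rats were seeded in collagen-coated microfluidic biochips, which are small culture chambers kept under flow, and were exposed to the drug for 24 h after adhesion. The comparison used 10 of the 15 arrays of the study, namely the 6 titled FLU 10 µM and the 4 titled FLU 100 µM. The 5 DMSO (solvent) arrays did not enter the test, and their means are given beside some genes as a description. By their labels all 3 groups share the cell type, the biochip format, the perfusion and the exposure time. The titles number the biochips in 2 runs, 10 to 16 (run 1) and 20 to 27 (run 2), and the labels do not say what the runs stand for. Run 1 held biochips 12, 13 and 14 at 10 µM and 15 and 16 at 100 µM. Run 2 held biochips 23, 24 and 25 at 10 µM and 26 and 27 at 100 µM. Both doses lay in both runs, so the run was a term in the fit and each difference is the mean of the differences within the runs. Nothing in the labels ties a biochip to an animal or a cell isolation of its own, and the p-values below therefore reflect only how far these biochips scatter, which may be technical scatter.

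Flutamide is a nonsteroidal antiandrogen that is known for liver injury in some patients. Hepatocytes clear it by cytochrome P450 oxidation, in which Cyp1a2 has a main part, and the drug and its products are known to activate the aryl hydrocarbon receptor (AhR) and to disturb mitochondrial respiration. Drug-sensing receptors (AhR, CAR, PXR), the oxidative stress factor NRF2 and the ATF4 and CHOP branch of the stress response each drive a known set of hepatocyte genes, and a dose comparison asks whether these and other genes move further at the higher dose.

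The arrays were hepatocyte-like in both doses. Albumin (Alb) lay at a mean log2 level of 12.94, above 99.95% of genes, and 8 of the 12 hepatocyte markers measured lay above the 98th percentile of genes. Asgr1, Hnf4a, Cps1 and Asgr2 lay lower, at percentiles 85.9, 81.3, 79.0 and 59.7. The macrophage markers Cd14 and Cd68 lay at 93.4 and 91.3, and the cholangiocyte marker Epcam at 84.7. Between doses, 11 of the 12 hepatocyte markers lay lower at 100 µM, with a median log2 difference of -0.12, and 9 of 12 without biochips 15, 23 and 24 (median -0.02). Markers of cholangiocytes, endothelial cells, stellate cells, lymphocytes and red blood cells had medians of 0.00 to 0.10, and of 0.05 to 0.16 without those biochips. Biochips 15, 23 and 24 stood apart. Array quality weights were 0.220 for biochip 23 (10 µM), 0.402 for biochip 15 (100 µM) and 0.599 for biochip 24 (10 µM), against 1.18 to 1.96 for the other 7. Biochip 23 also had the lowest median correlation with the other flutamide arrays, at 0.963. Differences are given on all 10 arrays and, beside or after them in parentheses, without these 3. Without them 4 arrays at 10 µM and 3 at 100 µM remain. Biochip 16 is then the only 100 µM array of run 1, and biochip 25 the only 10 µM array of run 2. In these bulk samples fewer cells of a type and less RNA per cell cannot be told apart.

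No gene differed between the doses past the threshold. At a Benjamini-Hochberg adjusted p under 0.05 in limma, 0 of 14506 genes were called (0%), and the lowest adjusted p was 0.967. At an unadjusted p under 0.05 there were 567 genes (3.91%), against 725 expected if no gene differed. Of these, 294 lay higher at 100 µM (2.03%) and 273 lower (1.88%). The 2 dose groups did not overlap within either run, in the same direction, for 161 genes on the higher side (1.11%) and 104 on the lower side (0.717%). After renewed quantile normalization this split was 137 to 138. With so few arrays some genes separate in this way without a dose effect. Their expected number was not computed, so the counts are a description. Without biochips 15, 23 and 24 the count of called genes was again 0 and 698 genes had an unadjusted p under 0.05, of which 186 were among the 567 with the same sign.

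**Figure D1:**
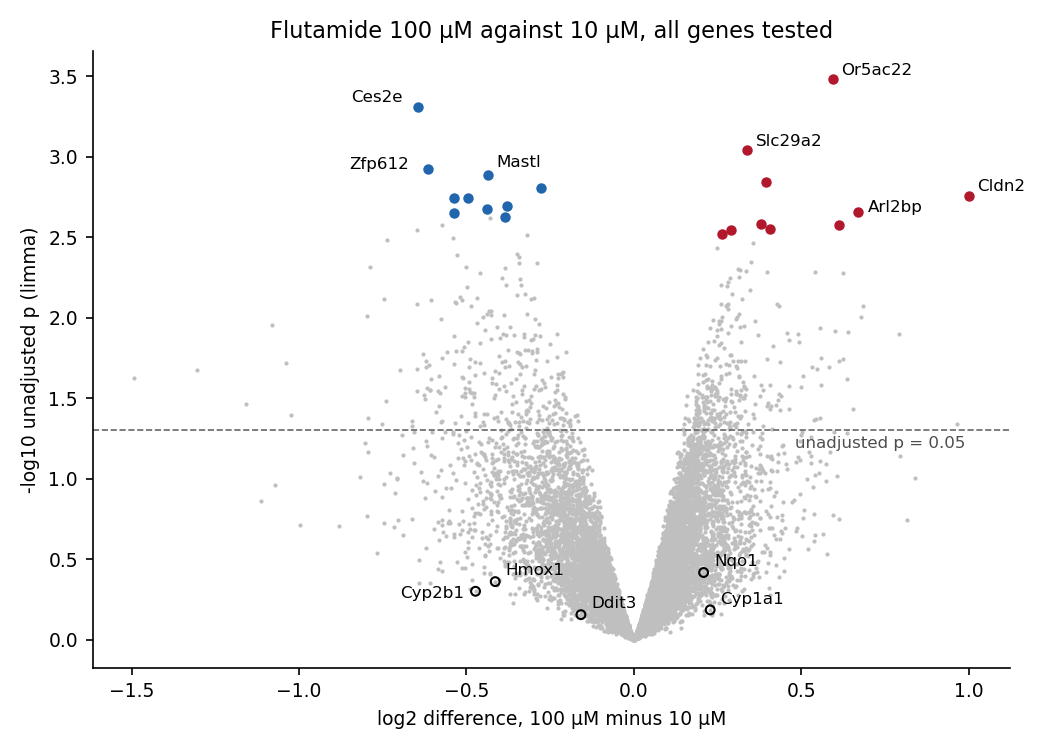
Log2 difference (100 µM minus 10 µM, x axis) against -log10 of the unadjusted limma p (y axis) for all 14506 genes, from 6 arrays at 10 µM and 4 at 100 µM with the run as a term. Filled points are the 10 genes of lowest p with the same sign in both runs on each side (red higher, blue lower at 100 µM), open circles are 5 drug and stress response genes, and the dashed line marks an unadjusted p of 0.05; no gene passed adjustment, and the differences beyond 1 all lie on the lower side.

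The 95% intervals of the genes give the size of the differences that the scatter of these biochips allows. The median half-width of the interval was 0.27 on the log2 scale, or 1.20-fold to either side. For 11635 genes (80.2%) the whole interval lay inside a 1.5-fold difference in either direction, and for 13987 (96.4%) inside a 2-fold difference. These shares include dim genes, as 53.8% of all genes had a mean log2 level under 6. They were not taken for the brighter genes alone. The median difference over all genes was 0.02, 0.03 within run 1 and 0.01 within run 2. The runs gave the same sign for 7031 genes (48.5%). A test of whether the dose difference itself differed between the runs (the interaction of dose and run) called 0 genes at an adjusted p under 0.05 (lowest adjusted p = 0.923) and 547 (3.77%) at an unadjusted p under 0.05.

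The AhR-driven genes fixed for report overlapped between the doses over the 10 arrays. Cyp1a1, the AhR-induced monooxygenase, lay at 10.73, 10.92 and 11.33 at 10 µM in run 1 and at 8.81, 11.01 and 11.47 in run 2. At 100 µM it lay at 10.16 and 11.11 in run 1 and at 11.44 and 11.05 in run 2. The groups overlapped in both runs, and biochip 23 was the lowest array by far. The difference was 0.23 (95% interval -0.87 to 1.32), with -0.36 within run 1 and 0.82 within run 2, and -0.04 without biochips 15, 23 and 24. Cyp1a2, which oxidises flutamide, differed by -0.23 (95% interval -0.75 to 0.29; -0.07 without the 3 biochips), and Ahrr, the AhR repressor gene that AhR itself induces, by -0.04 (-0.31 to 0.23; 0.07 without them). Cyp1b1, another P450 under AhR control, had the lowest p of the 8 AhR targets measured, at 0.29 (SE 0.13, unadjusted p = 0.0541 by limma), and 0.29 without the 3 biochips. Of those 8 targets, 3 lay higher and 5 lower, with a median of -0.05 (0.01 without them).

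The targets of CAR and PXR lay lower at 100 µM in 17 of 25 cases, with a median of -0.12, -0.09 within run 1 and -0.20 within run 2. That median was -0.00 without biochips 15, 23 and 24. Cyp2b1, the classical CAR target, spanned 4.61 to 7.96 (median 6.25) over the 10 µM arrays and lay at 6.80, 5.62, 5.50 and 5.08 at 100 µM, so that the 10 µM arrays enclosed all 4 values. Its difference was -0.47 with an interval of -1.98 to 1.03, the widest of the genes fixed for report, and -0.61 without the 3 biochips. Cyp3a23-3a1, a main PXR target, differed by -0.23 (-0.62 to 0.15; -0.13 without them). Cyp2c6v1, a P450 of drug oxidation, had the lowest p of the list at -0.51 (SE 0.20, unadjusted p = 0.0307 by limma), and -0.11 without the 3 biochips. Of the other P450 genes 18 of 26 lay lower, with a median of -0.12, also -0.00 without the 3 biochips. The enzymes of conjugation were higher in 13 of 23 cases (median 0.02; 0.05 without the 3 biochips).

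The stress-response genes fixed for report also overlapped between the doses, and some spread over more than 2 log2 units within 1 dose. Nqo1, an NRF2-driven quinone reductase, lay at 10.78 to 12.22 (median 12.05) at 10 µM and at 12.12, 12.16, 12.10 and 11.94 at 100 µM. Only biochip 23 lay below the 100 µM arrays by over 1, and the difference went from 0.21 (-0.30 to 0.72) to -0.01 without the 3 biochips. Hmox1, the haem oxygenase gene, spanned 7.64 to 10.65 (median 8.32) at 10 µM and lay at 8.67, 7.89, 7.53 and 9.41 at 100 µM. Its difference was 0.36 within run 1 and -1.19 within run 2, with -0.41 (-1.55 to 0.72) over both and -0.03 without the 3 biochips. Ddit3, which encodes CHOP, spanned 8.14 to 10.52 (median 9.21) at 10 µM and lay at 9.37, 8.64, 8.39 and 10.17 at 100 µM. Its difference was 0.39 within run 1 and -0.70 within run 2, with -0.16 (-1.04 to 0.73) over both and -0.05 without the 3 biochips. The interaction of dose and run had unadjusted p = 0.132 for Hmox1, 0.182 for Ddit3 and 0.249 for Cyp1a1 in limma, so a difference between the runs was not shown for any of them. Of the NRF2 targets 17 of 28 lay higher (median 0.03) and of the ATF4 and CHOP targets 13 of 23 (median 0.01), but both directions turned without the 3 biochips, to 9 of 28 higher (median -0.03) and 8 of 23 higher (median -0.05). Both also turned without biochip 23 alone, to 11 and 10 higher (medians -0.02 and -0.05). Of the ER chaperones 5 of 20 lay higher (median -0.06) and 7 of 20 without the 3 biochips (median -0.06), but 11 of 20 without biochip 23 alone (median 0.01). Of the p53 targets 13 of 20 lay higher with and without the 3 biochips (medians 0.06 and 0.03).

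**Figure D2:**
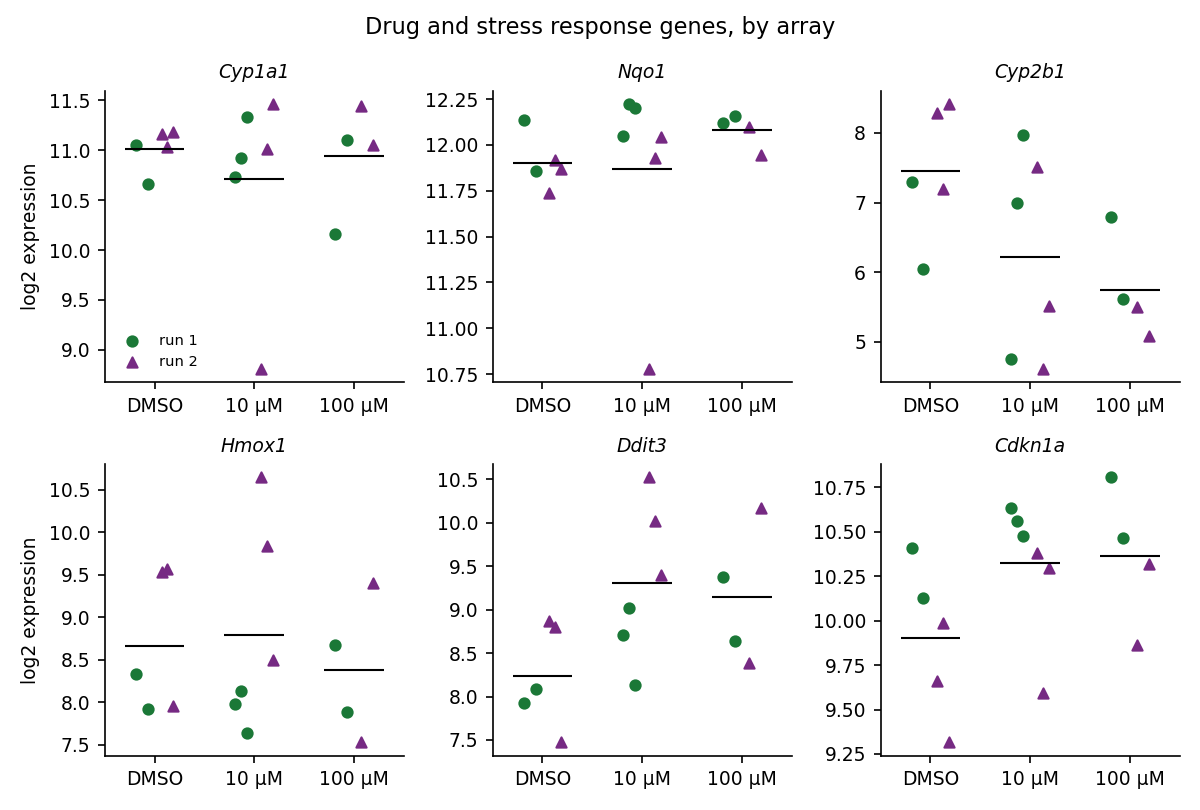
Log2 expression (y axis) of 6 drug and stress response genes in each DMSO, 10 µM and 100 µM array (x axis), with circles for run 1, triangles for run 2 and a line at the mean of each group. The dose groups overlap for every gene shown, and for Cyp1a1 and Nqo1 a single 10 µM array of run 2, biochip 23, lies at 8.81 and 10.78, below all other flutamide arrays.

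Several stress genes had narrow intervals, which bound the dose difference among these biochips only. For Gclc, a subunit gene of the first enzyme of glutathione synthesis, the difference was -0.06 (-0.32 to 0.20; -0.14 without the 3 biochips), for Asns, the ATF4-driven asparagine synthetase, 0.03 (-0.29 to 0.36; -0.11), and for Hspa5, the ER chaperone BiP, -0.12 (-0.39 to 0.15; -0.14). Cdkn1a, the p53 target p21, differed by 0.04 (-0.33 to 0.41; -0.14). For Alb the difference was -0.02 (-0.18 to 0.13; -0.02). Each of these intervals on all 10 arrays lay inside a 1.5-fold difference in either direction. They rest on the scatter of these biochips and do not cover differences between animals or isolations. Cpt1a, the gate of mitochondrial fatty acid oxidation, differed by -0.07 (-0.52 to 0.39; -0.26), Pck1, an enzyme of gluconeogenesis, by 0.12 (-0.48 to 0.72; 0.36), and Cyp7a1, the rate-limiting enzyme of bile acid synthesis, by -0.08 (-0.74 to 0.57; 0.24). Tiparp and Srebf1, which were also to be reported whatever the result, are not analysed here.

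Among the genes of lowest p on the higher side, none of which passed adjustment, were genes of nucleoside transport, cell contacts and circadian control. Slc29a2, an equilibrative nucleoside transporter, lay at 5.77, 5.92 and 5.88 at 10 µM in run 1 and at 5.73, 5.55 and 5.75 in run 2. At 100 µM it lay at 6.19 and 6.19 in run 1 and at 6.05 and 5.99 in run 2. All 4 arrays at 100 µM exceeded all 6 at 10 µM. The difference was 0.34 (SE 0.07, 1.27-fold, unadjusted p = 0.000906 and adjusted p = 0.967 by limma), 0.33 within run 1 and 0.34 within run 2, and 0.30 without biochips 15, 23 and 24.

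Cldn2, a tight junction claudin that forms channels for cations and water, had the largest value of the 10. At 10 µM it lay at 6.85, 6.69 and 6.83 in run 1 and at 4.67, 4.81 and 5.88 in run 2. At 100 µM it lay at 7.98 and 7.26 in run 1 and at 6.33 and 6.25 in run 2. The doses did not overlap within a run, but the runs lay apart by more than the doses. The difference was 1.00 (SE 0.23, 2.00-fold, unadjusted p = 0.00174 by limma), and 0.44 without the 3 biochips, which include both 10 µM arrays under 5 and the highest array at 100 µM. Arl2bp, a binding partner of the small GTPase ARL2, lay at 7.19 to 7.83 (median 7.73) at 10 µM and at 8.90, 8.01, 8.23 and 8.04 at 100 µM. The groups did not overlap. Its difference of 0.67 (SE 0.16) was 0.32 without the 3 biochips, of which biochip 15 held the highest value.

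The remaining 7 of the 10 had smaller values. Parva, the actin-binding focal adhesion protein parvin alpha, was at 0.61 (0.46 without the 3 biochips), Nfil3, a repressor of the circadian D-box, at 0.41 (0.44) and Commd7 at 0.29 (0.23). Lefty2, a secreted inhibitor of nodal signalling, was at 0.38 (0.34) and Cntnap4, a neuronal adhesion gene, at 0.26 (0.32), both on mean log2 levels under 4.4 in each dose. Of the 10, Or5ac22 (0.59, and 0.66 without the 3 biochips; unadjusted p = 0.000328 in limma, the lowest of all genes) and Or5m11 (0.40, and 0.36 without them) are olfactory receptor genes. Their group means were 3.64 and 4.24 for Or5ac22 and 3.95 and 4.35 for Or5m11 at 10 and 100 µM. That is near the dim end of the arrays, whose minima lay at 1.80 to 2.02. No background or detection value was used here, so such genes are described by level alone.

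On the lower side the 10 genes of lowest p included a carboxylesterase gene and P450 genes. Ces2e, a carboxylesterase of ester and amide hydrolysis, lay at 5.84, 5.99 and 6.05 at 10 µM in run 1 and at 7.05, 6.85 and 6.87 in run 2. At 100 µM it lay at 5.41 and 4.99 in run 1 and at 6.14 and 6.64 in run 2. Within each run both 100 µM arrays were below all those at 10 µM, and run 2 was higher than run 1 at both doses. The difference was -0.64 (SE 0.13, 1.56-fold lower, unadjusted p = 0.000488 and adjusted p = 0.967 by limma), and -0.74 without biochips 15, 23 and 24. Cyp2d2, a P450 of drug oxidation, lay at 7.29 to 7.95 (median 7.51) at 10 µM and at 7.03, 6.93, 7.23 and 7.19 at 100 µM, where all 4 arrays were below all 6. Its difference was -0.50 (SE 0.12), and -0.36 without the 3 biochips. Cyp2b12, a P450 near the dim end with group means of 4.32 and 3.94, was at -0.38 (-0.32). As members of one P450 subfamily can be alike in sequence, probe signal may be shared among them.

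The other 7 of these genes have no common role by name. Creld2, an ER stress-induced chaperone-like protein, lay at 7.81, 7.75 and 7.65 at 10 µM in run 1 and at 8.20, 8.31 and 8.20 in run 2, against 7.29 and 7.29, and 7.69 and 8.13, at 100 µM. The doses did not overlap within a run, and the difference was -0.38 (SE 0.09; -0.37 without the 3 biochips). Zfp612 (-0.61, and -0.48 without them) and Zfp867 (-0.54, and -0.39) encode zinc finger proteins. Mastl (-0.44, and -0.37) encodes the Greatwall kinase of mitotic entry and Dnai7 (-0.54, and -0.53) an axonemal dynein protein. Eya3 (-0.44 with and without the 3 biochips) encodes a transcriptional coactivator with phosphatase activity and Slc24a5 (-0.28 with and without them) a cation exchanger. Of the 20 genes on both sides, 19 had no overlap between doses in either run (Eya3 overlapped in run 2), which follows from choosing the lowest p.

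**Figure D3:**
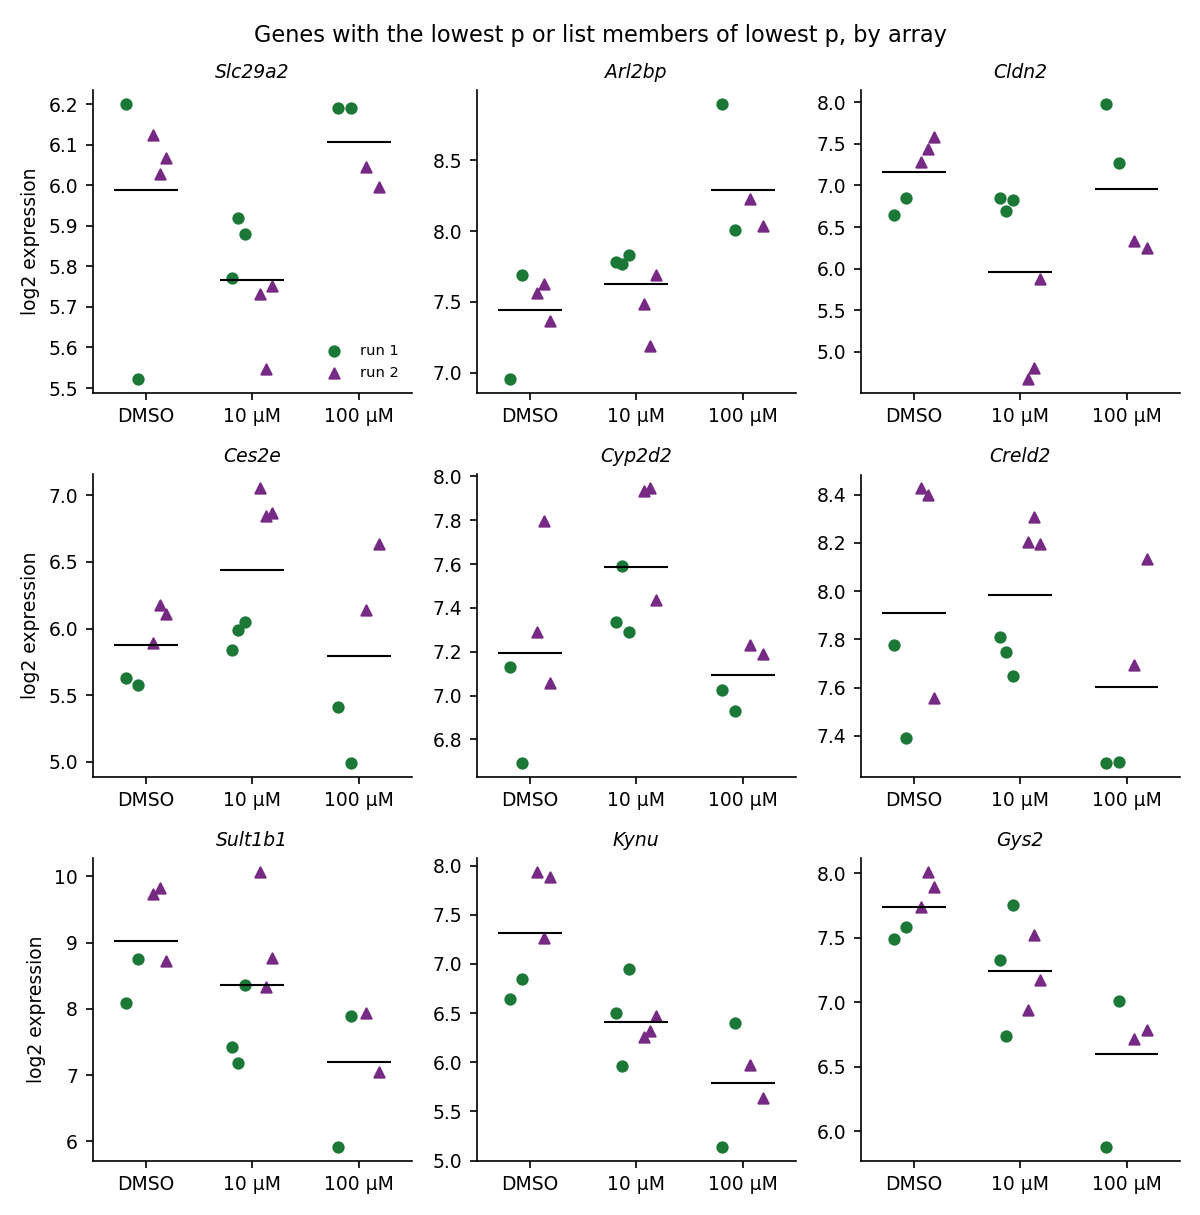
Log2 expression (y axis) of 9 genes in each DMSO, 10 µM and 100 µM array (x axis), with circles for run 1, triangles for run 2 and a line at each group mean. Slc29a2, Arl2bp and Cldn2 lie higher and Ces2e, Cyp2d2 and Creld2 lower at 100 µM within each run, while Sult1b1, Kynu and Gys2 step down from DMSO through 10 µM to 100 µM in their means with overlap between doses; no gene passed adjustment.

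The DMSO arrays, which the choice of these genes did not use, lay between the doses for most of them. With group means taken as the mean of the run means, DMSO fell between 10 and 100 µM for 17 of the 20 genes of lowest p. It did so for 409 of the 567 genes at an unadjusted p under 0.05 (72.1%) and for 4815 of all genes (33.2%). The 10 µM mean lay between DMSO and 100 µM for 89 of the 567 (15.7%). This is a description, because a gene chosen for 2 distant dose means leaves more room between them. The means of single genes given here and below are instead plain means over the arrays of a group. Slc29a2 had a DMSO mean of 5.99 between 5.77 at 10 µM and 6.11 at 100 µM, and Cyp2d2 one of 7.19 between 7.59 and 7.09. For Cldn2 the 100 µM mean of 6.96 lay between DMSO at 7.16 and 10 µM at 5.96.

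Of the 31 list members of lowest p, 3 had their 10 µM mean between DMSO and 100 µM (9.68%, against 35.8% of all genes). The 3 are metabolic genes and are given as a description. Sult1b1, a sulfotransferase of thyroid hormones and phenols, lay at 7.42, 7.19 and 8.36 at 10 µM in run 1 and at 10.06, 8.33 and 8.77 in run 2. At 100 µM it lay at 5.91 and 7.90 in run 1 and at 7.94 and 7.04 in run 2. The doses overlapped in run 1 and not in run 2. The difference was -1.16 (SE 0.47, 2.23-fold lower, unadjusted p = 0.0344 by limma), on means of 9.03 in DMSO, 8.36 at 10 µM and 7.20 at 100 µM. It was -0.48 without the 3 biochips, which include the highest array at 10 µM and the lowest at 100 µM. Kynu, the kynureninase of tryptophan breakdown, differed by -0.62 (SE 0.25; -0.35 without the 3 biochips) and Gys2, the liver glycogen synthase, by -0.65 (SE 0.25; -0.34). In both, the lowest array at 100 µM was biochip 15.

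Beyond single genes, 795 genes in 31 pathway lists were measured. At an unadjusted p under 0.05, 6 of them lay higher at 100 µM (0.755%, against 2.03% of all genes) and 30 lower (3.77%, against 1.88%). Without biochips 15, 23 and 24 the counts were 14 and 25 of the 795. Over all 14506 genes they were then 367 higher and 331 lower. Genes with a mean log2 level of 6 or more, which make up 80.8% of the pathway genes, showed 1.54% higher and 2.76% lower over the whole array. List medians ran from -0.17 to 0.13, and from -0.06 to 0.08 without the 3 biochips, where the median over all genes was 0.02. Only 15 of the 31 lists had the same sign in both runs.

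**Figure D4:**
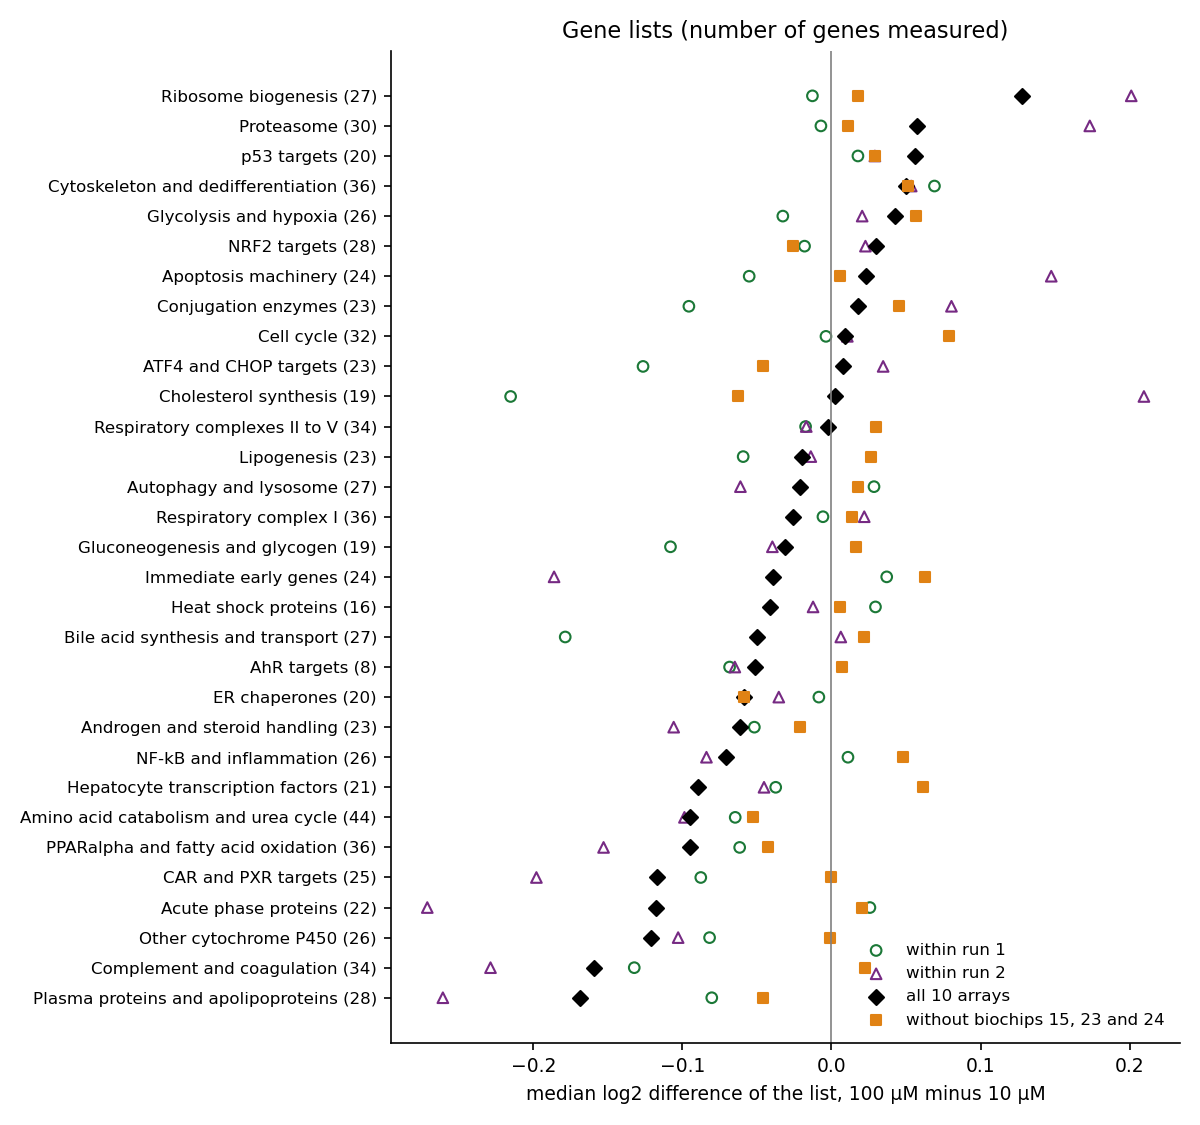
Median log2 difference (100 µM minus 10 µM, x axis) of each pathway list (y axis, number of genes measured in parentheses) on all 10 arrays, within run 1, within run 2 and without biochips 15, 23 and 24. List medians on all arrays run from -0.17 to 0.13 and draw in to -0.06 to 0.08 without the 3 biochips.

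Secreted liver proteins lay lower on all 10 arrays, and the lean was smaller or absent without the 3 biochips. Of 28 plasma protein and apolipoprotein genes 27 lay lower at 100 µM, with a median of -0.17, where 56.5% of all genes lay higher. All genes include many dim ones, whereas this list had a median log2 level of 10.48 over the 15 arrays. Genes at a mean log2 level of 6 or more had a median difference of -0.00. The list median was -0.08 within run 1 and -0.26 within run 2. It was -0.10 without biochip 23 (27 lower) and -0.05 without the 3 biochips (20 lower). Apoa1, the main protein of high-density lipoprotein, lay at 11.69 to 12.02 (median 11.91) at 10 µM and at 11.81, 11.85, 11.48 and 11.57 at 100 µM. The doses overlapped over all arrays but not within a run, and the difference was -0.21 (SE 0.09; -0.12 without the 3 biochips). Apoc1 was at -0.40 (-0.17) and Serpina7, the thyroxine-binding globulin gene, at -0.45 (-0.35), the other list members under an unadjusted p of 0.05 in limma. Both were named after their values were seen. The hepatocyte markers, which share Apoa1 and other secreted proteins with these lists, leaned the same way (11 of 12 lower), and their part in the list medians was not tested.

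In the complement and coagulation list 30 of 34 genes lay lower (median -0.16, -0.13 within run 1 and -0.23 within run 2). Without the 3 biochips 16 were lower and the median was 0.02. F2, which encodes prothrombin, lay at 9.54 to 10.00 (median 9.62) at 10 µM and at 9.31, 9.53, 9.47 and 9.38 at 100 µM, with no overlap, and differed by -0.25 (SE 0.10; -0.11 without the 3 biochips). Of the acute phase genes 20 of 22 lay lower (median -0.12). That median was 0.03 within run 1 and -0.27 within run 2, and 0.02 without the 3 biochips, with 7 lower. Apcs, the serum amyloid P gene, had the lowest p of that list at -0.22 (SE 0.12; -0.02).

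Among the lists that leaned higher were those of ribosome assembly and protein breakdown. Ribosome biogenesis genes lay higher in 22 of 27 cases (median 0.13, -0.01 within run 1 and 0.20 within run 2). Proteasome genes lay higher in 24 of 30 (median 0.06, -0.01 and 0.17). Without biochip 23 alone the medians were 0.02 and 0.01. Polr1b, a subunit of RNA polymerase I, was at 0.30 (SE 0.15; 0.06 without the 3 biochips) and Psmd7, a lid subunit of the proteasome, at 0.21 (SE 0.09; 0.09). Cytoskeleton and dedifferentiation genes lay higher in 27 of 36, with a median of 0.05 that was 0.07 within run 1, 0.05 within run 2 and 0.05 without the 3 biochips. Its member of lowest p was Vim, which encodes vimentin, at 0.38 (SE 0.17; 0.31).

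Most macrophage markers moved with the same biochip. The 20 Kupffer cell and macrophage markers had a list level (the median over genes of the value minus the gene's mean) of 1.03 in biochip 23, and of -0.50 to 0.22 in the other 9 flutamide arrays. Biochip 23 also had the highest list level of the endothelial (0.30), stellate cell (0.18), hepatocyte (0.18), lymphocyte (0.11) and cholangiocyte (0.05) markers. Red blood cell markers lay at 0.19 there and at 0.23 on biochip 27. Ctss, a macrophage-rich cathepsin, lay at 10.16 on biochip 23, Vsig4, a complement receptor of Kupffer cells, at 8.95, and Cd163, a scavenger receptor, at 8.51. Lyz2 (6.68), Cd68 (9.85), Cd14 (9.60) and Cd5l (6.46) lay on biochip 23 within the range of the other flutamide arrays. All other markers of the list were highest on biochip 23. Summed on the linear scale the markers spanned 2301 to 5870 at 10 µM and 2061 to 3465 at 100 µM. Between doses 5 markers lay higher and 15 lower, with a median of -0.13, 0.34 within run 1, -0.64 within run 2 and 0.16 without the 3 biochips. The part of the macrophage signal in the list medians was not tested.

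**Figure D5:**
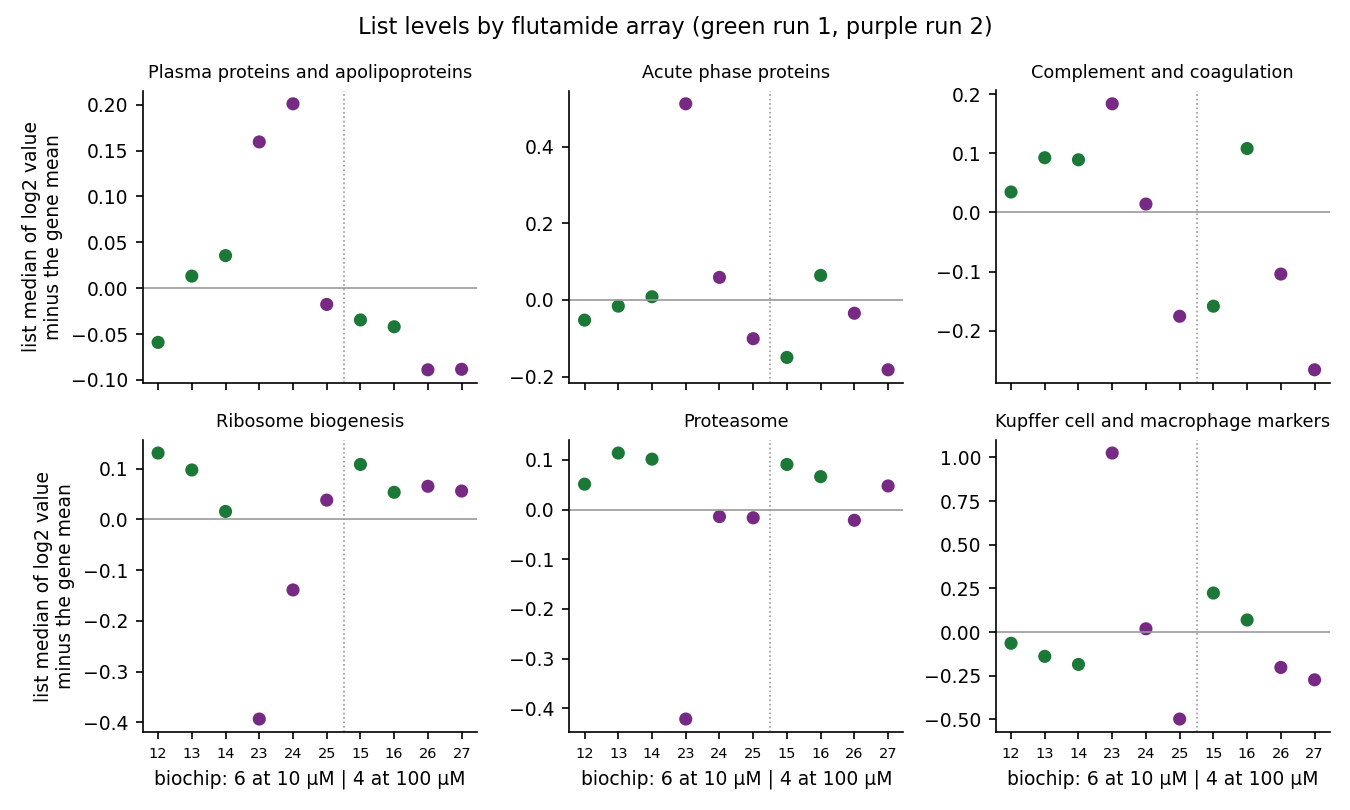
List level (y axis: median over the list's genes of the log2 value minus the gene's mean over the 10 arrays) of 6 lists in each flutamide biochip (x axis, 6 at 10 µM left and 4 at 100 µM right of the dotted line; green run 1, purple run 2; each panel has its own y scale). Biochip 23 holds the highest level of acute phase proteins (0.51), complement (0.18) and macrophage markers (1.03) and the lowest of ribosome biogenesis (-0.39) and proteasome (-0.42).

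Metabolic lists leaned lower by less. In the list of PPARalpha targets and fat oxidation 25 of 36 genes lay lower, and in amino acid catabolism 30 of 44. Both had a median of -0.10 over all arrays, and of -0.04 and -0.05 without the 3 biochips. Acot2, a mitochondrial acyl-CoA thioesterase, lay the other way at 0.21 (SE 0.08; 0.19). Etfdh (-0.25, and -0.21 without the 3 biochips) and Acaa2 (-0.24, and -0.19), of mitochondrial oxidation, and Gnmt (-0.58, and -0.25), the glycine methyltransferase, were also under an unadjusted p of 0.05 in limma. In bile acid handling 16 of 27 genes lay lower (median -0.05), and 11 of 27 without the 3 biochips (median 0.02). Slc10a1, the bile acid uptake transporter NTCP, was at -0.74 (SE 0.30; -0.55), while Cyp8b1 (0.28, and 0.27) and Hsd3b7 (0.28, and 0.27), enzymes of bile acid synthesis, lay higher. Lipogenesis was split 11 higher to 12 lower, and 16 to 7 without the 3 biochips, with Elovl6, a fatty acid elongase, at 0.56 (SE 0.18; 0.31), and Mlxipl, the carbohydrate-response factor ChREBP, at -0.34 (-0.08).

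Cholesterol synthesis showed opposite values in the runs. Its 19 genes had a median of 0.00 (-0.06 without the 3 biochips), made of -0.22 within run 1 (14 lower) and 0.21 within run 2 (6 lower). The list level was 0.50, 0.13 and 0.22 in the 10 µM arrays of run 1 and -0.75, -0.19 and 0.05 in those of run 2, against -0.05, 0.38, -0.03 and -0.13 at 100 µM. The 10 µM arrays spanned a wider range than those at 100 µM. The difference between runs was not tested for the list, and 0 of all genes were called for it.

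Mitochondrial respiration, a known site of flutamide toxicity, had list medians near 0. Complex I genes lay lower in 20 of 36 cases (median -0.03) and those of complexes II to V in 19 of 34 (median -0.00). Without the 3 biochips 16 and 13 lay lower (medians 0.01 and 0.03). Ndufb11, a complex I subunit, was at -0.19 (SE 0.08; -0.14 without the 3 biochips) and Cox8a, a subunit of cytochrome c oxidase, at -0.12 (SE 0.09; -0.00). Cell cycle genes were split 16 to 16 (median 0.01), and 20 higher to 12 lower without the 3 biochips (median 0.08). Of the 32, 0 were higher and 4 lower at an unadjusted p under 0.05 in limma, where 2.03% and 1.88% of all genes were. They were Mcm7, a subunit of the replicative helicase, at -0.43 (SE 0.13; -0.29), and the cyclins Ccnb2 (-0.43, and -0.18), Ccne2 (-0.49, and -0.38) and Ccna2 (-0.24, and -0.43). Polk, a translesion DNA polymerase and p53 target, was at -0.57 (SE 0.14), and -0.66 without the 3 biochips. Srxn1, the NRF2 target sulfiredoxin, lay at 7.76 to 8.25 (median 7.95) at 10 µM and at 7.65, 7.73, 7.43 and 7.66 at 100 µM, with no overlap. It was at -0.37 (SE 0.12; -0.20). Trib3, a CHOP-induced pseudokinase, was at -0.25 (SE 0.11; -0.23), and Bak1, a pore-forming protein of apoptosis, at 0.23 (SE 0.09; 0.25).

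The members of lowest p in the other lists are given here with their values. Gata4, a transcription factor, was at -0.33 (SE 0.11; -0.19 without the 3 biochips), and Hsf1, the master factor of the heat shock response, at -0.23 (SE 0.08; -0.14). Nr4a2, an immediate early nuclear receptor, was at -0.58 (SE 0.23; -0.64) and Ccl2, a monocyte chemokine, at -0.66 (SE 0.29; -0.52). Hsd17b6, an androgen-metabolising dehydrogenase, was at -0.54 (SE 0.31; -0.20), on a gene with 3 probe sets whose mean difference was -0.35. Egln1, the oxygen-sensing prolyl hydroxylase, was at 0.17 (SE 0.09, and 0.15 without the 3 biochips), on a gene with 2 probe sets whose mean difference was 0.09. Tm7sf2, a sterol reductase, was at -0.19 (SE 0.16, and -0.02), and Lamp1, a lysosomal membrane protein, at -0.16 (SE 0.11, and -0.02). None of these genes had an adjusted p under 0.967 in limma.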

How the data were processed

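Each array was deposited by the authors as a column of log2 values per probe set. Per the submitters' processing notes, RMA and Partek were used, with no version or setting stated there. No further normalization was applied. Of 29214 probe sets, 15633 were in the platform annotation, 323 of them with several genes and 15310 with 1 symbol. Of the latter, 15279 were matched by gene identifier to RefSeq genes of assembly GRCr8, used for names only. The 13904 without a single gene were left out, and the probe set of highest mean over all 15 arrays stood for each of 14506 genes (527 had more than 1). The table held 0 columns of other samples.

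Doses were compared with limma 3.58.1 in R 4.3.3 (lmFit, eBayes) on 10 arrays with dose and number run as terms (7 residual degrees of freedom per gene), two-sided, Benjamini-Hochberg adjusted over all genes. The procedure was also run on simulated data, with independent noise of the same spread on every array for each gene. The quality weights of the real arrays differ, which that simulation did not cover. No 2 flutamide arrays were identical (pairwise correlations 0.955 to 0.994). Arrays have no read depth, so their number limits the precision.

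The members, the gene lists (31 of pathways, 7 of markers; 885 of 1000 entries measured) and the tests were chosen with earlier results of these data known. Lists were described by counts and medians, with no test. The genes named were the 10 of lowest p on each side with the same sign in both runs, as none was called, the member of lowest p of each pathway list, and a fixed set of 20 genes (17 measured). Any other gene was named after its values were seen. Alternatives were no run term, arrays left out, array quality weights, renewed quantile normalization, dim genes (mean log2 under 6) left out, the mean of probe sets, a trended robust prior, and all 15 arrays in the fit.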

Additional observations from a re-analysis of the deposited data

Results flagged for a closer look

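In groups of 4 to 6 arrays, the gap of the highest or lowest array to its nearest neighbour was set against the range of the group for each named gene. Of 130 groups, 5 exceeded Dixon's critical value, where chance gives about 1 in 20. All 5 lay in the 10 µM group, 3 on biochip 23 and 2 on biochip 24. On biochip 23 Cyp1a1 lay at 8.81 (next lowest 10.73), Nqo1 at 10.78 (next 11.93) and Bak1 at 6.69 (next 6.84). On biochip 24 Cdkn1a lay at 9.59 (next lowest 10.29) and F2 at 10.00 (next highest 9.71).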

How the results depend on the processing

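No alternative called a gene for the dose difference (0 throughout, lowest adjusted p 0.321 to 0.999 in limma). The 567 genes at an unadjusted p under 0.05 became 197 (61 higher, 136 lower) with dim genes left out, against 294 higher and 273 lower with them; of the 567, 103 higher and 185 lower were not dim, and the cause of the further fall was not tested. The count was 433 to 957 with 1 array left out (957 without 10 µM biochip 23, 893 without 100 µM biochip 16). The 265 genes without overlap became 101 (40 higher, 61 lower) with dim genes left out, 398 to 754 with 1 array left out, and 2359 without biochips 15, 23 and 24, where fewer arrays are compared. The interaction of dose and run called 0 to 4 genes with 1 array left out. The 4, found without 100 µM biochip 16, which leaves 1 array in that arm, were Msl1, Vcsa2, Zfp866 and Zbtb33 (lowest adjusted p = 0.0160), named after their values were seen. Of 65 named genes 55 kept their sign under every alternative that gave a value (dim genes have none once left out), and 10 did not. With array quality weights the sign turned for Ahrr (0.017), Asns (-0.064), Cdkn1a (-0.029), Cyp1a1 (-0.012) and Cyp7a1 (0.12). Without the 3 biochips it turned for Ahrr (0.065), Asns (-0.11), Cdkn1a (-0.14), Cyp1a1 (-0.0445), Cyp7a1 (0.24) and Nqo1 (-0.0116). With 1 array left out, Ahrr ran from -0.10 to 0.064, Alb from -0.044 to 0.0027, Asns from -0.077 to 0.11, Cdkn1a from -0.069 to 0.14, Cpt1a from -0.21 to 0.060, Cyp1a1 from -0.19 to 0.55, Cyp7a1 from -0.22 to 0.15, Ddit3 from -0.42 to 0.31 and Hmox1 from -0.74 to 0.13. The cause was not tested. No paired analysis was possible because the dose groups share no biochip numbers.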

Other observations

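Differences beyond 1 on the log2 scale were found for 8 genes, all lower at 100 µM and chosen here after their values were seen, and none passed adjustment in limma. The interferon-induced genes Ifitm2 and Ifit3 had the most negative values, -1.49 (SE 0.56) and -1.31 (SE 0.48). Ifit3 lay at 6.90, 5.42, 5.71, 7.29, 8.16 and 5.74 at 10 µM and at 4.96, 5.61, 5.12 and 5.24 at 100 µM, so that biochips 12, 23 and 24 stood above the rest. Without biochips 15, 23 and 24 the differences were -0.53 and -0.48. C4bpb, a chain of the C4b-binding protein of complement control, was at -1.11 and at -0.03 without them, and lay at 11.85 on biochip 23. Lpl, the lipoprotein lipase gene, was at -1.07 (-0.61 without them), with 8.75 on biochip 23. Chek1, a DNA damage checkpoint kinase, was at -1.02 (-0.40), Fbxo48 at -1.08 (-0.44) and Cfap141 at -1.04 (-0.15). In these 3 genes biochip 15 was the lowest of the flutamide arrays, at 4.39, 4.02 and 4.18. The eighth gene is Sult1b1.

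Without biochip 16, biochip 15 is the only 100 µM array of run 1, assumed to vary like the other groups, so the interaction test then picks genes in which biochip 15 is extreme, and the 4 genes it called are given as values. Msl1, a subunit of a histone acetyltransferase complex, lay at 5.27 there and at 7.21 to 7.63 in the other 9 flutamide arrays, and Zbtb33, which encodes the methyl-DNA-binding factor Kaiso, at 5.07 against 7.77 to 8.92. Zfp866 lay at 4.12 on biochip 15 and at 5.62 to 6.30 in the others, and Vcsa2 at 5.81 against 2.77 to 3.43.

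Dim genes made up a larger share of the low-p genes on the higher side than on the lower. Of the 294 genes higher at an unadjusted p under 0.05, 191 (65.0%) had a mean log2 level under 6, against 88 of 273 (32.2%) on the lower side and 53.8% of all genes. Of 1052 olfactory receptor genes tested, at a median level of 3.53, 28 lay higher (2.66%, against 2.03% of all genes) and 3 lower (0.285%, against 1.88%).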
